A study of Rattus norvegicus with 9 samples.

Results

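Podocytes are the epithelial cells that wrap the capillaries of the renal glomerulus, and they were followed here through 8 genes: Nphs1, Kirrel, Cd2ap, Magi2, Synpo, Podxl, Ptpro and Wt1. Every probe of the arrays that carries one of these gene names was taken, which gave 12 probes of the 30367 gene probes and 8 of the 26115 gene names. In whole kidneys that were perfused with mesenchymal stromal cells (MSC), each of the 7 probes bright enough to be tested was dimmer on average than in kidneys that were not perfused, by 0.15 to 0.43 on the log2 scale. None of these differences passed the test, and the kidneys of the groups overlapped for all 7 probes. In 1 MSC kidney nephrin and the receptor phosphatase Ptpro were low together, and without that kidney the differences were -0.02 to -0.18.

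Each array measured RNA from 1 rat kidney, labelled with Cy3 and read in 1 colour on an Agilent rat array. The donors were Fisher F344 rats, and the warm ischaemia lasted 20 min. for each kidney, always a left one. The 5 control kidneys (NP) were not perfused, and the 4 MSC kidneys were perfused in the cold (4°C, 4 hrs) with Belzer solution to which 3000000 MSC had been added, grown from bone marrow of Sprague Dawley rats that carry an EGFP transgene. The labels are divided on the controls, since the treatment field calls them not perfused, as the paper does, whereas the titles describe perfusion with Belzer solution. Under the first reading the perfusion, the cold hours and the MSC all differ between the groups and cannot be told apart. The arrays lay on 2 slides, with NP 1 to NP 3, MSC 1 and MSC 2 on slide 1 and NP 4, NP 5, MSC 3 and MSC 4 on slide 2. The median raw intensity of gene spots ran from 577 to 917 between arrays, and 65.6% to 74.3% of gene spots were well above background. MSC 4 had the lowest value of both. A whole kidney holds few podocytes, and in such bulk RNA fewer podocytes and less RNA per podocyte cannot be told apart.

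Foot processes of neighbouring podocytes interlock around the capillary, and the slit between them is bridged by the slit diaphragm, the last filter that holds back plasma protein. Nephrin (Nphs1) and the Neph1 protein (Kirrel) reach across the slit. CD2AP (Cd2ap) and the scaffold protein MAGI2 tie the complex to the actin skeleton inside the foot process, where synaptopodin (Synpo) binds actin. Podocalyxin (Podxl) is the strongly charged sialoprotein of the outer surface that keeps foot processes apart, and Ptpro, also called GLEPP1, is a receptor tyrosine phosphatase of the same surface. WT1 (Wt1) is the zinc finger transcription factor that maintains the podocyte state. Several of these genes, Cd2ap, Magi2 and Ptpro among them, are also used by other cells.

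The probes are 60 bases long, and the transcripts of all 8 members were found by accession in the current RefSeq gene table, where Kirrel now carries the name Kirrel1. The 4 sequences below are shown for where their probes lie. Those of nephrin and WT1 lie at the end of the coding sequence, and that of MAGI2 crosses an exon junction. CD2AP is shown as the gene that departed from the rest. The Wt1 and Magi2 probes shown were too dim to be tested. Capitals mark the stop codon where the probe ends on it. Positions are those of the array files on rn4.
Nphs1 A_64_P162500: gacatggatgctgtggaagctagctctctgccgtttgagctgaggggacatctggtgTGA
Wt1 A_64_P140507: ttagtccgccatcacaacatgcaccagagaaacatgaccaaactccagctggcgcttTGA
Magi2 A_44_P320987: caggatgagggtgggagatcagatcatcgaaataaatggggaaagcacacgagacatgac
Cd2ap A_44_P355861: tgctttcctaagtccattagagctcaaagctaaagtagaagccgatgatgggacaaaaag

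The Nphs1 probe lies at chr1:85442444-85442503 on the plus strand, and the other Nphs1 probe, A_44_P533740, at chr1:85443916-85443975, beyond the stop codon. The Wt1 probe that ends on the stop codon lies at chr3:90575952-90576011 on the plus strand, and the 2 others, A_64_P142861 and A_44_P808666, start at 90576101 and 90577175. The Magi2 probe spans 45450 bases on the genome for 60 bases of probe, at chr4:9960556-10006005 on the minus strand. The Cd2ap probe lies in 1 piece at chr9:13879149-13879208 on the plus strand.

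A probe was tested if its normalized log2 intensity was over 1.1 times the 95th percentile of the negative control spots on at least 4 arrays, which kept 15845 probes. Of the 12 probes, 7 passed, and all 7 were over that line on 9 of 9 arrays. They stand for 5 of the 8 genes: Nphs1 (2 probes), Wt1 (1 of 3), Podxl, Ptpro (2) and Cd2ap. The single probes of Synpo, Magi2 and Kirrel and the other 2 Wt1 probes were over it on no array. In the limma fit of MSC against NP kidneys, 0% of the 15845 probes passed an FDR (Benjamini-Hochberg) of 0.05, where the smallest FDR was 0.106. At an unadjusted p under 0.05, 5.18% of probes were lower and 6.5% higher in MSC kidneys, and of the 7 podocyte probes 0 were. Groups without overlap were seen for 5.26% of all probes (3.15% higher and 2.11% lower in MSC kidneys) and for 0 of these 7. The median log2 difference over the 7 was -0.33, beside -0.0047 over all probes tested, of which 51.2% were lower. Values below are normalized log2 intensities, and differences are MSC minus NP in log2.

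**Figure D1:**
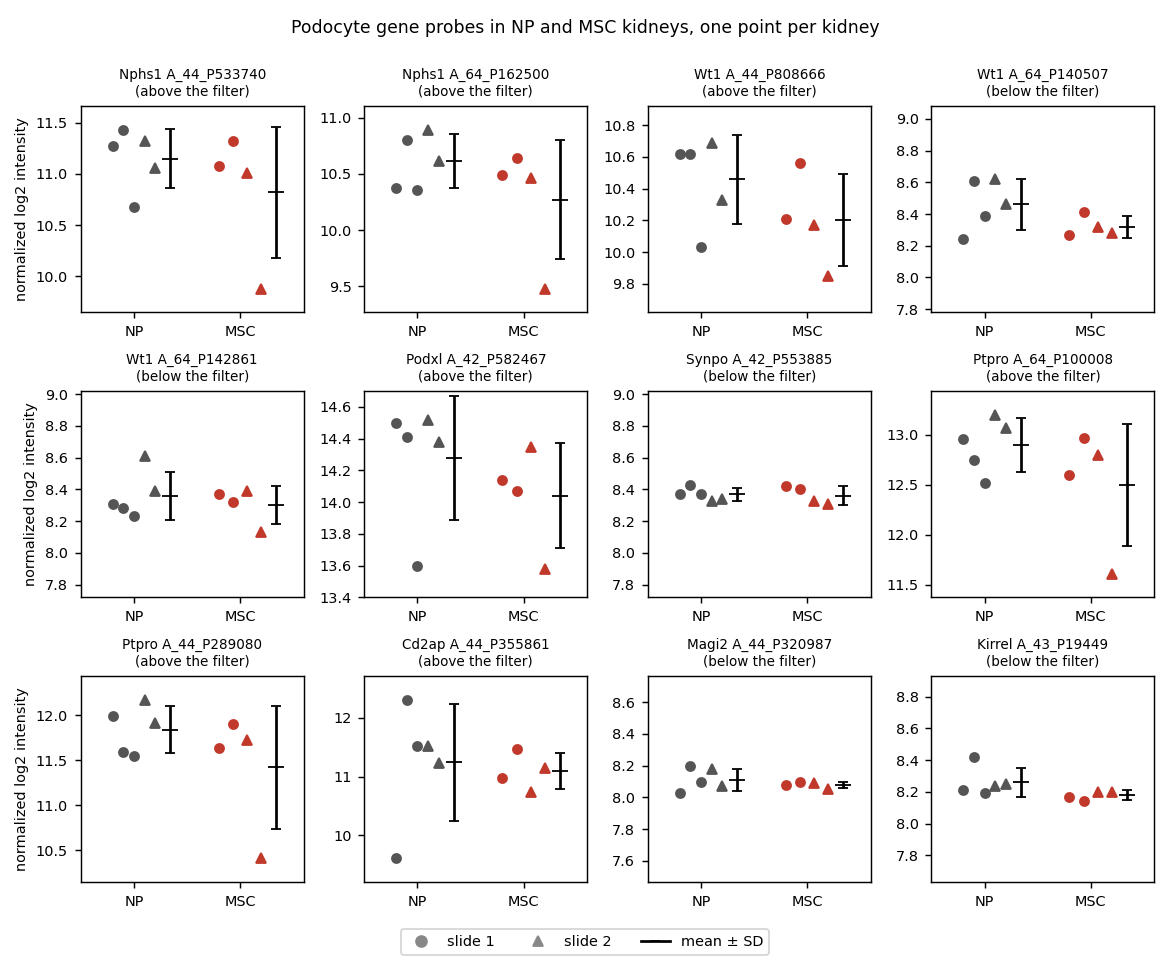
Normalized log2 intensity (vertical axis, its range set for each panel) of the 12 probes in NP and MSC kidneys, with 1 point per kidney (circles slide 1, triangles slide 2) and the mean ± SD beside each group. In the Nphs1 and Ptpro panels MSC 4, the lower MSC triangle, sits apart below the other 8 kidneys, while the Cd2ap panel has its low point in an NP kidney.

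Nephrin, the protein of the slit itself, was read by 2 probes. At A_44_P533740 it was 11.27, 11.43, 10.68, 11.32 and 11.06 in NP 1 to NP 5, and 11.08, 11.32, 11.01 and 9.88 in MSC 1 to MSC 4. MSC 1 to MSC 3 lay inside the range of the NP kidneys, and only MSC 4 lay below it. The means were 11.15 ± 0.29 (SD, n = 5) and 10.82 ± 0.64 (SD, n = 4), a difference of -0.33 (95% interval -0.94 to 0.28), with a limma FDR of 0.655. At A_64_P162500, which ends on the stop codon, the values were 10.37, 10.80, 10.36, 10.89 and 10.61 against 10.49, 10.64, 10.46 and 9.48. The order of the kidneys differed in detail, and MSC 4 was again the lowest. The difference there was -0.34 (95% interval -0.85 to 0.17), with a limma FDR of 0.579, so that the probes differed by little in size.

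Kirrel, the partner of nephrin across the slit, was too dim for the test. Its raw intensity was 260 to 336, near the median of 217 to 237 of the negative controls, and it was well above background in 3 of 5 NP and 1 of 4 MSC kidneys. Its mean was 8.26 ± 0.09 (SD, n = 5) in NP and 8.18 ± 0.03 (SD, n = 4) in MSC kidneys. Among all gene probes without the filter this difference of -0.08 had a limma FDR of 0.712. With the processed signal, which has the background subtracted, and 75th percentile scaling in place of cyclic loess, the difference was -0.47 (95% interval -1.09 to 0.15) with a limma FDR of 0.949. The level of Kirrel was thus measured poorly. No change in it was called, and the size of change that could be detected at this brightness was not tested.

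Of the adaptors, Cd2ap was 9.60, 12.31, 11.53, 11.52 and 11.23 in NP 1 to NP 5, and 10.98, 11.47, 10.74 and 11.15 in MSC 1 to MSC 4. Its lowest and its highest value both stood in NP kidneys, NP 1 and NP 2, and all MSC kidneys lay between them. The means were 11.24 ± 1.00 (SD, n = 5) and 11.09 ± 0.31 (SD, n = 4), with a difference of -0.15 (95% interval -1.14 to 0.84) and a limma FDR of 0.917. Without NP 1 the difference was -0.56 (limma FDR 0.281), and without NP 2 it was 0.12 (limma FDR 0.936), so that single kidneys set its sign. Those kidneys stood apart for many genes: 665 of 15844 probes were more than 1 log2 unit below the mean of the other NP kidneys in NP 1, and 680 were more than 1 above it in NP 2, against 15 to 81 and 2 to 68 in the other 7 kidneys within their groups. The part of this in the Cd2ap values was not tested.

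Magi2 was not well above background in any MSC kidney and was so in 1 of 5 NP kidneys. Its raw intensity was 254 to 296, with means of 8.11 ± 0.07 (SD, n = 5) and 8.08 ± 0.02 (SD, n = 4), and no fold is given for it. Synpo was also below the filter but above the background, in 5 of 5 NP and 3 of 4 MSC kidneys, with raw intensities of 291 to 377. Its means of 8.37 ± 0.04 (SD, n = 5) and 8.36 ± 0.06 (SD, n = 4) gave a difference of 0.00 (95% interval -0.10 to 0.09) with a limma FDR of 0.994, and with the processed signal and 75th percentile scaling the difference was -0.02 with a wider 95% interval of -0.45 to 0.40.

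Of the surface proteins, podocalyxin was measured by 10 spots of 1 probe on each array. Podxl was 14.50, 14.41, 13.60, 14.52 and 14.38 in NP 1 to NP 5, and 14.14, 14.07, 14.35 and 13.58 in MSC 1 to MSC 4. The low values belonged to NP 3 and MSC 4, 1 kidney of each group. The 10 spots of an array had an SD of 0.06 to 0.16, less than the SD of 0.39 between NP and 0.33 between MSC kidneys. The difference was -0.25 (95% interval -0.72 to 0.23), with a limma FDR of 0.671.

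Ptpro had the largest differences of the 5 tested genes over all 9 kidneys, at both of its probes, but without MSC 4 they were -0.11 and -0.09, smaller than those of Cd2ap (-0.18) and Wt1 (-0.15). A_64_P100008 read 12.96, 12.75, 12.52, 13.20 and 13.07 in NP 1 to NP 5, and 12.60, 12.97, 12.80 and 11.61 in MSC 1 to MSC 4. Again only MSC 4 fell outside the NP range. The means were 12.90 ± 0.27 (SD, n = 5) and 12.50 ± 0.61 (SD, n = 4), with a difference of -0.41 (95% interval -0.98 to 0.17) and a limma FDR of 0.563. At A_44_P289080 MSC 4 read 10.41, beside 11.64 to 11.90 in the other MSC and 11.55 to 12.17 in the NP kidneys. The difference there was -0.43 (95% interval -1.05 to 0.20), with a limma FDR of 0.575.

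Wt1 passed the filter at 1 of its 3 probes, A_44_P808666, the one farthest beyond the stop codon. There it was 10.62, 10.62, 10.03, 10.69 and 10.33 in NP 1 to NP 5, and 10.21, 10.56, 10.17 and 9.85 in MSC 1 to MSC 4. The lowest NP kidney was NP 3, and MSC 4 was below all NP kidneys. The difference was -0.26 (95% interval -0.64 to 0.12), with a limma FDR of 0.569. The other 2 Wt1 probes, both below the filter, differed by -0.14 (limma FDR 0.695) at the stop codon and by -0.06 (limma FDR 0.886) further on, in the fit without the filter. The first was well above background in 5 of 5 NP and 3 of 4 MSC kidneys, and the second in 3 of 5 and 2 of 4. With the processed signal and 75th percentile scaling the differences were -0.48 (95% interval -1.25 to 0.29) and -0.22 (95% interval -1.07 to 0.63).

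**Figure D2:**
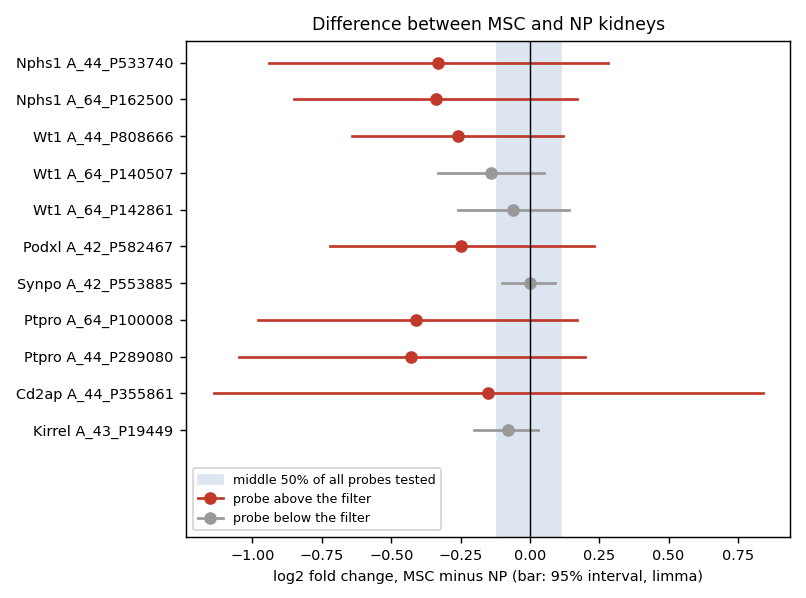
Difference between MSC and NP kidneys (horizontal axis, log2, with the 95% interval from limma) for 11 of the 12 probes, red where the probe passed the filter and grey where it did not, and the middle 50% of all tested probes shaded (-0.118 to 0.111). Magi2 is left out because it was not well above background in MSC kidneys. Every red point lies left of the shaded band, and every interval includes 0.

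The podocyte genes varied more between kidneys than between groups. MSC 4 was the lowest of all 9 kidneys at 6 of the 7 probes, and NP 3 was the lowest NP kidney at 6. The highest value stood in NP 4 for 5 probes and in NP 2 for 2. Against the mean of the other MSC kidneys, MSC 4 was 2.38- and 2.07-fold lower at the Nphs1 probes and 2.27- and 2.54-fold lower at the Ptpro probes. It was 1.52-fold lower for Podxl and 1.38-fold lower for Wt1, and 11.15 against 10.74 to 11.47 for Cd2ap. NP 3 was 1.81-fold lower than the other NP kidneys for Podxl, 1.45-fold for Wt1, 1.5- and 1.23-fold for Nphs1 and 1.39- and 1.28-fold for Ptpro.

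In MSC 4, 15 of 15844 probes in all were more than 1 log2 unit below the mean of the other MSC kidneys. Among these 15 were both Nphs1 and both Ptpro probes. Nes, the intermediate filament protein nestin found in podocytes, was also among them, 1.25 log2 units below, and is named after its value was seen. MSC 4 also had the most flagged spots (593, where the array with the fewest had 273) besides the lowest intensity, and the part of array quality in its low podocyte values was not tested.

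**Figure D3:**
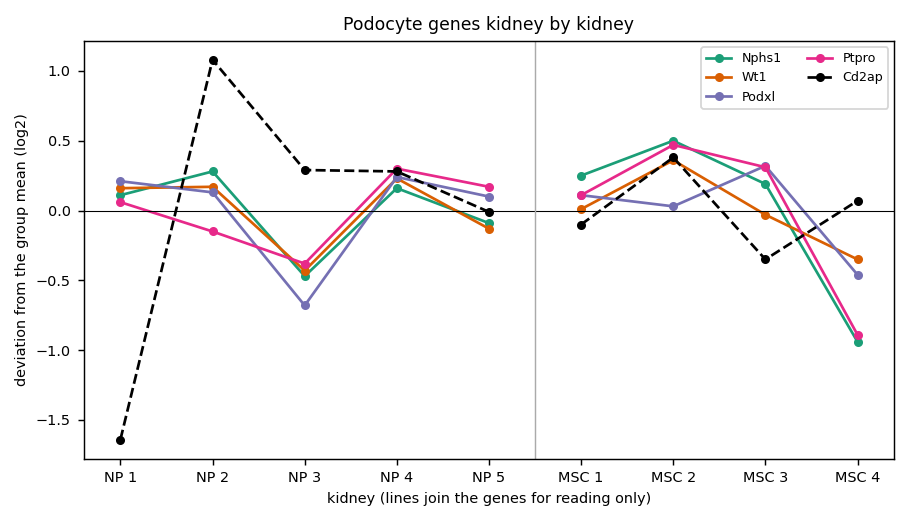
Deviation of each gene from its group mean (vertical axis, log2) in each of the 9 kidneys, for the brightest passing probe of Nphs1, Wt1, Podxl, Ptpro and Cd2ap, with lines only to guide the eye. The 4 solid lines are below 0 together in NP 3 and in MSC 4, where they reach -0.35 to -0.94, and the dashed Cd2ap line is lowest in NP 1.

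The deviations of Nphs1, Wt1, Podxl and Ptpro from their group means were compared in pairs over the 9 kidneys. The 6 pairs had a Pearson's r of 0.76 to 0.89 and a Spearman's rho of 0.38 to 0.80. The exact two-sided permutation p of r, with values exchanged within groups, was 0.00174 to 0.0382, and 0.0174 to 0.0637 after Benjamini-Hochberg adjustment over 10 pairs. Only the pair of Nphs1 and Wt1 was under 0.05 after adjustment (exact permutation, 0.0174), and the other 5 were at 0.0637. For rho the adjusted exact permutation p was 0.184 to 0.491. Without NP 3 and MSC 4, the kidneys farthest from the median, the pairs ran from -0.36 to 0.76. Nphs1 then had 0.76 with Wt1, Ptpro had 0.29 with Nphs1 and 0.28 with Wt1, and the pairs of Podxl with these 3 genes ran from -0.36 to -0.01. These 2 kidneys were left out because they lie farthest from the median of the same genes, which by itself lowers r. The 4 pairs with Cd2ap had r from -0.25 to 0.02 and an adjusted exact permutation p of 0.657 or more. Over the 7 kidneys without NP 3 and MSC 4 they ran from -0.40 to 0.37, a range that overlaps that of the other pairs.

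The mean deviation of Nphs1, Podxl, Ptpro and Wt1 was then set against 10353 other named genes over the 9 kidneys, as a description without a test. The 5 genes most alike were Lysmd2 (r = 0.974), Perp (r = 0.945), Tmem220 (r = 0.935), Olfm1 (r = 0.932) and Mgat4a (r = 0.924). Without NP 3 and MSC 4, r was 0.67 for Lysmd2, 0.33 for Perp, 0.30 for Tmem220, 0.55 for Olfm1 and 0.81 for Mgat4a. Of the podocyte lists described below, Robo2, the receptor that binds nephrin through an adaptor, stood at rank 8 (r = 0.905) and Pdpn, podoplanin, at rank 10 (r = 0.898), and without the same 2 kidneys their r was 0.32 and 0.66. Of 54 ranked genes of these lists 5 were among the first 100 (9.26%, where the first 100 are 0.966% of all ranked genes). Besides Robo2 and Pdpn these were Nes (r = 0.875), Cdkn1c (r = 0.796) and Clic5 (r = 0.762). Without the same 2 kidneys their r was 0.54, -0.2 and 0.15, and ranks were not taken again without those kidneys. The median rank of the 54 genes was 3925.5. Their median r was 0.06, beside -0.03 over all ranked genes. All these values share the same 9 arrays and their normalization.

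The slides gave different values. Within slide 1, with 3 NP and 2 MSC kidneys, the 7 differences were -0.06 to 0.08, with a median of 0.05. Within slide 2, with 2 NP and 2 MSC kidneys, they were -0.43 to -0.97, with a median of -0.74, and 5 of the 7 were lower at an unadjusted limma p under 0.05, beside 4.21% of all probes, all with an FDR of 0.608 or more. MSC 4 is on slide 2 and NP 3 on slide 1. A test of the difference between slides gave -0.42 to -1.03 for the 7 probes, with a limma FDR of 1 for each, and 0 of all probes passed in that test, where 1.96% had a p under 0.05. With the slide as a block over all 9 kidneys, the differences were -0.15 to -0.41. Without MSC 4 they were -0.02 to -0.18. Without NP 3 they were -0.08 to -0.50, and then Podxl (-0.42, limma FDR 0.525) and Wt1 (-0.37, limma FDR 0.538) had a p under 0.05 before adjustment, as 3.61% of all probes did in that direction. Without both kidneys they were -0.10 to -0.26, and Podxl had a p under 0.05 before adjustment (2.61% of all probes, lower) and a limma FDR of 0.72.

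**Figure D4:**
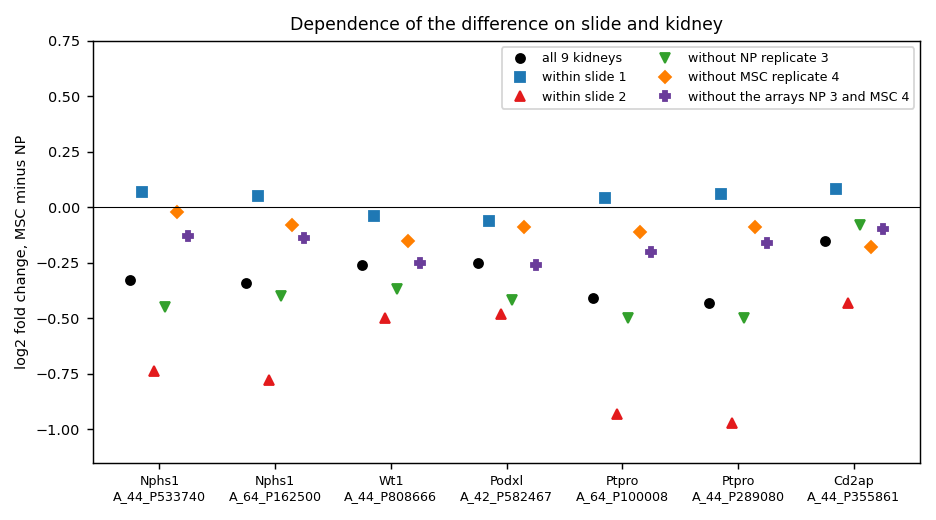
Difference between MSC and NP kidneys (vertical axis, log2) for the 7 tested probes over all 9 kidneys, within each slide, and without NP 3, MSC 4 or both. The slide 1 squares lie close to 0 and the slide 2 triangles lie lowest for each probe, down to -0.97, with the values without MSC 4 near 0 for Nphs1.

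Other genes of the podocyte were taken in 4 lists, of which 54 of 63 genes passed the filter. Of these 37 were lower and 17 higher in MSC kidneys, with a median of -0.08, where 51.2% of all probes were lower. At an unadjusted p under 0.05, 3 were lower and 4 higher, beside 5.18% and 6.5% of all probes, and 0 passed the FDR. Of the 54 genes, 2 had groups without overlap, both higher, beside 3.15% of all probes. The counts of calls and of groups without overlap are near the shares over all probes. The genes named are the 3 with the smallest p in each list.

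Partners at the slit diaphragm were lower for 14 of 15 genes, with a median of -0.12. Pard3, a polarity protein of the slit, was lower by 0.40 (11.94 ± 0.08 against 12.34 ± 0.31, SD, n = 4 and 5, limma FDR 0.373). Kirrel3, a relative of Kirrel, was lower by 0.28 (limma FDR 0.381). The exception was Trpc6, the calcium channel of the foot process, which was higher by 0.27 (limma FDR 0.375). Trpc6 lay near the filter line of 8.71 to 8.77, at 8.55 to 8.90 in NP and 8.86 to 9.18 in MSC kidneys. The 4 MSC arrays alone were enough for it to pass the filter.

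Genes of the foot process skeleton and its adhesion were split, with 9 of 19 lower and 10 higher and a median of 0. Cd151, the tetraspanin partner of laminin-binding integrins, was 12.34 to 12.56 in MSC and 11.84 to 12.12 in NP kidneys, a difference of 0.49 with a limma FDR of 0.334. Vim, the intermediate filament vimentin, was 12.17 to 12.58 against 11.61 to 12.16, a difference of 0.43 with an FDR of 0.335. Ezr, ezrin, which links podocalyxin to actin, differed by 0.24 (limma FDR 0.476). Many other renal cells use these 3 genes.

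Podocyte transcription factors and cell cycle inhibitors were lower for 6 of 7 genes, with a median of -0.09. Cdkn1c, the cyclin-dependent kinase inhibitor p57 of mature podocytes, was 13.52 ± 0.17 (SD, n = 4) against 13.90 ± 0.21 (SD, n = 5), a difference of -0.38 with a limma FDR of 0.335. Foxc2 (-0.26, limma FDR 0.531) and Tcf21 (-0.20, limma FDR 0.803), both transcription factors, followed in order of p. Genes of the basement membrane, secreted factors and surface enzymes were lower for 8 of 13, with a median of -0.05. Lamb2, the laminin chain of the glomerular basement membrane, was higher by 0.30 (limma FDR 0.387), and Mme, the surface peptidase neprilysin, by 0.29 (limma FDR 0.467). Thsd7a, a podocyte surface protein, was lower by 0.42 (limma FDR 0.486).

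Markers of other cells were measured on the same arrays. A list of defining podocyte genes (Nphs1, Podxl, Wt1 and Ptpro, with Synpo below the filter) had a summed intensity of 21000 to 37100 in NP and 17200 to 31300 in MSC kidneys, and its 4 genes are those already described. For 8 endothelial genes the ranges were 89300 to 146000 and 84600 to 152000, for 8 mesangial and pericyte genes 15100 to 22100 and 15500 to 21500, and for 8 proximal tubule genes 1260000 to 1670000 and 1540000 to 1880000. None of these lists had a gene past the FDR. The median difference was 0.05 for endothelium, 0.04 for mesangium, 0.16 for proximal tubule and 0.28 for 6 collecting duct genes. Lists from outside the nephron held larger differences, in the median for fat and only in single genes for the others. For 3 fat genes the median was 1.23. Adipoq, the fat hormone adiponectin, was at 1.43 (limma FDR 0.354) and Fabp4, a fatty acid binding protein, at 1.23 (limma FDR 0.466). The summed intensity of the fat list was 4630 to 6830 in NP and 5160 to 31000 in MSC kidneys. It was highest in MSC 3, followed by MSC 4, while MSC 1 lay inside the NP range. For 5 leukocyte and red cell genes the median was 0.19. Among them the red cell genes Alas2, for haem synthesis, and Hbb, a globin, differed by -1.74 (limma FDR 0.35) and -1.01 (limma FDR 0.509). The summed intensity of this list was 193000 to 260000 in NP and 32600 to 251000 in MSC kidneys. It was lowest in MSC 1, while MSC 2 and MSC 4 lay inside the NP range. For 4 genes listed for MSC the median was 0.29, with Col1a1, a collagen chain, at 1.06 (limma FDR 0.334). The others were Eng at 0.49, Nt5e at 0.09 and Pdgfra at -0.12. Thy1 and Itga5, of the same list, did not pass the filter. The part of these lists in the podocyte values was not tested.

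In MSC 4 the mean of the podocyte list was 0.83 log2 units below its mean over all kidneys (-0.83), while endothelium was at 0.19, mesangium at -0.01, parietal epithelium at 0.27, proximal tubule at 0.16, collecting duct at 0.53, the MSC genes at 0.46 and fat at 0.97. The means of the 4 wider podocyte lists were at -0.08 to 0.01 there and Cd2ap was not low. Of the 54 genes of these lists 17 had their lowest MSC value in MSC 4 (31.5%, beside 24.5% of all probes) and 12 their lowest value of all 9 kidneys (22.2%, beside 9.31%). The endothelial and mesangial lists also hold genes of vessels outside the glomerulus. In NP 3 the podocyte list was at -0.35, together with endothelium at -0.24, mesangium at -0.21, proximal tubule at -0.14 and collecting duct at -0.37. The part of tissue composition in these values was not tested.

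**Figure D5:**
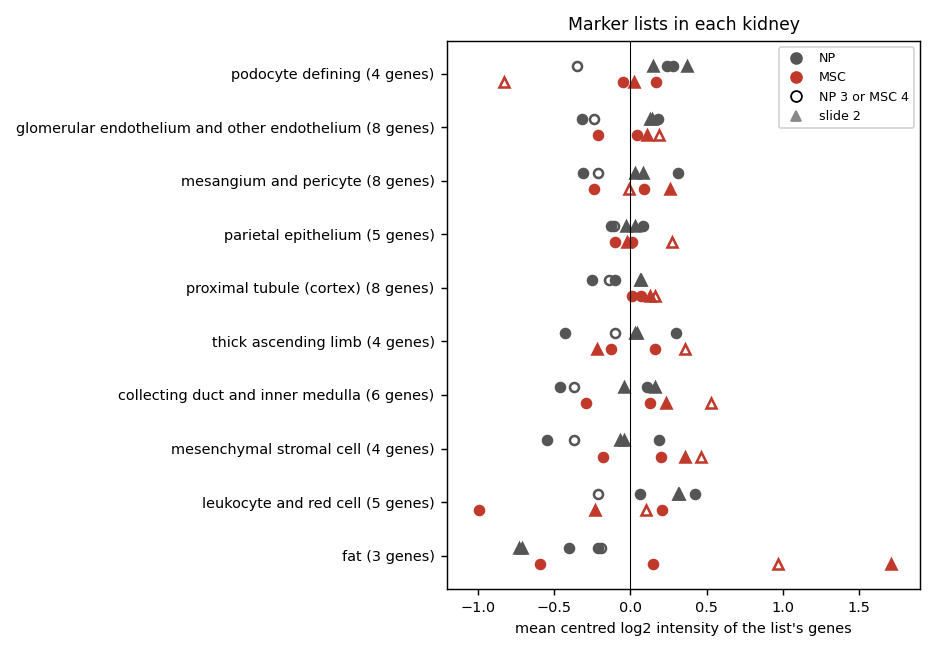
Mean log2 intensity of the genes of each marker list, each gene centred on its mean over the 9 kidneys (horizontal axis), in NP (grey, upper row) and MSC (red, lower row) kidneys, with triangles for slide 2 and open symbols for NP 3 and MSC 4. The open red triangle of MSC 4 lies at -0.83 for the podocyte list and between -0.01 and 0.97 for the other 9 lists.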

How the data were processed

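Arrays of 5 NP and 4 MSC kidneys were read by the authors with Agilent Feature Extraction (10.7.3.1 per the file headers). The raw spot intensity values were deposited as mean pixel signal without background subtraction and, in another column, as processed signal. The log2 values in the table the authors deposited were normalized and filtered. The paper's methods name limma and the Benjamini-Hochberg FDR. One MSC array that the study discarded is not analysed here. No value column of a sample was left unused (0 columns).

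Here log2 mean intensities of 62976 spots were normalized by cyclic loess without background subtraction. Spots with an outlier flag were dropped and spots of a probe averaged. Probes over 1.1 times the 95th percentile of 308 negative controls on 4 arrays were kept (15845 of 30367), and these values had a Pearson's r of 0.9999 or more with the deposited log2 values. Each probe was fitted with lmFit and eBayes, and FDRs were taken over all kept probes (R 4.3.3, limma 3.58.1 and the data.table package, version 1.17.8). Probes below the filter were read from the same fit without the filter. The limma p-values set each difference against the spread between separate kidneys, which eBayes moderates over the probes. The number of arrays limits the precision. On simulated arrays of this comparison with 15845 probes, 178 of 200 changed probes were called, with 9 false calls. The called probes were 81% of those changed 2-fold and 97% of those changed 4-fold. The largest difference among the tested podocyte probes was smaller, 1.34-fold lower in MSC kidneys at Ptpro A_44_P289080. These rates therefore do not tell how often a difference of the size seen for the podocyte probes would be called.

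The genes, the lists of podocyte and other cell type genes and the tests were chosen with earlier results of these data known. The rule named all probes of the 8 genes, the 3 smallest p in each podocyte list, and the 5 genes most alike. Levels were not compared between probes. Replicate numbers did not pair the kidneys. The deviations of same-numbered NP and MSC kidneys correlated at 0.2, 0.32, -0.35 and 0.05. The 27 alternatives changed the intensity column, normalization, filter, probe choice, variance model and blocks, or left out arrays. Some genes are not reported here. The alternatives without NP 3 and MSC 4 together, and with the background-subtracted processed signal, 75th percentile scaling and no filter, were chosen after seeing the data.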

Additional observations from a re-analysis of the deposited data

Results flagged for a closer look

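Among 14 sets of NP or MSC kidneys tested over the podocyte probes, 2 held a kidney far from the others by Dixon's ratio, beside 0.7 expected by chance. Nephrin at A_64_P162500 was 9.48 in MSC 4, where the nearest MSC kidney was at 10.46, which gave a ratio of 0.852. Podocalyxin was 13.60 in NP 3, where the nearest NP kidney was at 14.38, which gave a ratio of 0.854. The other podocyte genes were read on the same arrays, so their low values there are not independent of these.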

How the results depend on the processing

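The podocyte differences kept their direction in most of the 27 alternatives, and none passed an FDR of 0.05 in any of them. The smallest FDR was 0.281, for Cd2ap without NP 1. The median over the 7 probes was 0.05 within slide 1 and -0.74 within slide 2. Within slide 1 the difference turned to 0.07 and 0.05 for the Nphs1 probes, to 0.04 and 0.06 for the Ptpro probes and to 0.08 for Cd2ap, and without NP 2 it was 0.12 for Cd2ap. The cause was not tested. With each kidney left out in turn, the median ran from -0.46 to -0.09, the number of podocyte probes lower at an unadjusted p under 0.05 from 0 to 2, and Cd2ap from -0.56 to 0.12. That number was 5 within slide 2 and 1 without NP 3 and MSC 4. Over all probes, 0 were higher at an FDR of 0.05, beside 2 with array weights and 4 within slide 2. With the replicate number as a block the median was -0.34, the count of probes past the FDR stayed at 0, and no call changed. With median or 75th percentile scaling alone, the median of all probes was -0.03 and 0. The dim signals of Kirrel, Magi2 and Synpo limit what can be said of them.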
